A study of Populus tremula x Populus alba with 10 samples.

Results

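In stems of hybrid poplar, 74 of 31823 genes were already expressed in well-watered plants and were raised strongly by severe drought in bulk RNA. They were chosen by their bulk counts, expressed as CPM, a gene's counts relative to all counts of its library. A gene was selected when its mean control CPM was at least 5, its mean drought CPM was at least 8 times that mean, and every drought library was at least 4 times the highest control library. Of all genes, 18939 met the control level. All plants were Populus tremula x alba, INRA clone 717 1B4, wild type, and every library therefore comes from 1 clone. Poplars from in vitro culture had 6 weeks of growth in pots of peat under long days. Controls were then watered to about field capacity, 0.46 m3 of water per m3 of soil. Drought plants went unwatered until the soil held 15% of field capacity, and were kept there by weight for 14 days, with a wilting threshold at 0.10 m3 per m3. Bulk stem RNA was sequenced from 3 control and 3 drought libraries with a stranded mRNA kit, described in the design text as biological replicates. Single-nucleus RNA was sequenced from 2 control and 2 drought libraries, each from 1 plant. The protocol gives stem internode 15 as the source of nuclei, while the design text also gives the internode before it. The labels tie no plant to both assays.

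Plants that lose water accumulate the hormone abscisic acid. Its receptors switch off a family of phosphatases, which frees kinases that activate transcription factors on drought-responsive genes. The genes known to be induced this way in plants encode hydrophilic dehydration proteins, enzymes that make sugars and other compatible solutes, lipid transfer and wax enzymes, phosphatases that dampen the signal, and transcription factors. In woody stems such responses take place in several tissues at once, among them bark, cambium, developing wood and the living cells between the vessels. The genes below are given by their deposited IDs, which carry no gene names, so that none of these roles is assigned to any of them. For the same reason the stem tissues could not be checked against marker genes, and clusters of nuclei are given by number.

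The bulk libraries held 47900128 to 57594846 counts, so that the lowest count of any of the 74 genes in a bulk library was 200. The nuclei libraries were shallower, with 4346198 and 3633900 unique molecular identifiers (UMIs, 1 per captured RNA molecule) in the controls and 1930997 and 1994615 under drought. Barcodes numbered 4439 and 5698 in the controls and 4203 and 6066 under drought. Of these, 97.8% and 100.0% had at least 200 genes in the controls, against 75.5% and 61.6% under drought. Any 2 nuclei libraries shared 18 to 56 barcodes. One bulk library stood apart: drought library 2 lay below the other drought libraries for most of the 74 genes, as described further on. In bulk RNA, a change in the number of cells of a type and a change in RNA per cell cannot be told apart.

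In bulk, the 74 genes moved from a small part of the RNA to a large one. They took 0.256%, 0.374% and 0.271% of the counts in the controls, and 6.38%, 6.46% and 6.17% in the drought libraries. The drought share was almost the same in all 3 libraries, although its make-up was not. Drought library 2 was the lowest of the 3 in 68 of the 74 genes, while the 2 most abundant genes were highest there. Mean control CPM ran from 5.17 to 684, with a median of 15.3, and 23 genes were under 10. Mean drought CPM ran from 47.0 to 21222, with a median of 208, and 10 genes were at 1000 or more. The ratio of the means had a median of 13.4 and a range of 8.01 to 118. It was under 16 in 53 genes, 16 or more in 21, 32 or more in 9 and 64 or more in 4. These bulk values selected the genes, and are given with no test.

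**Figure D1:**
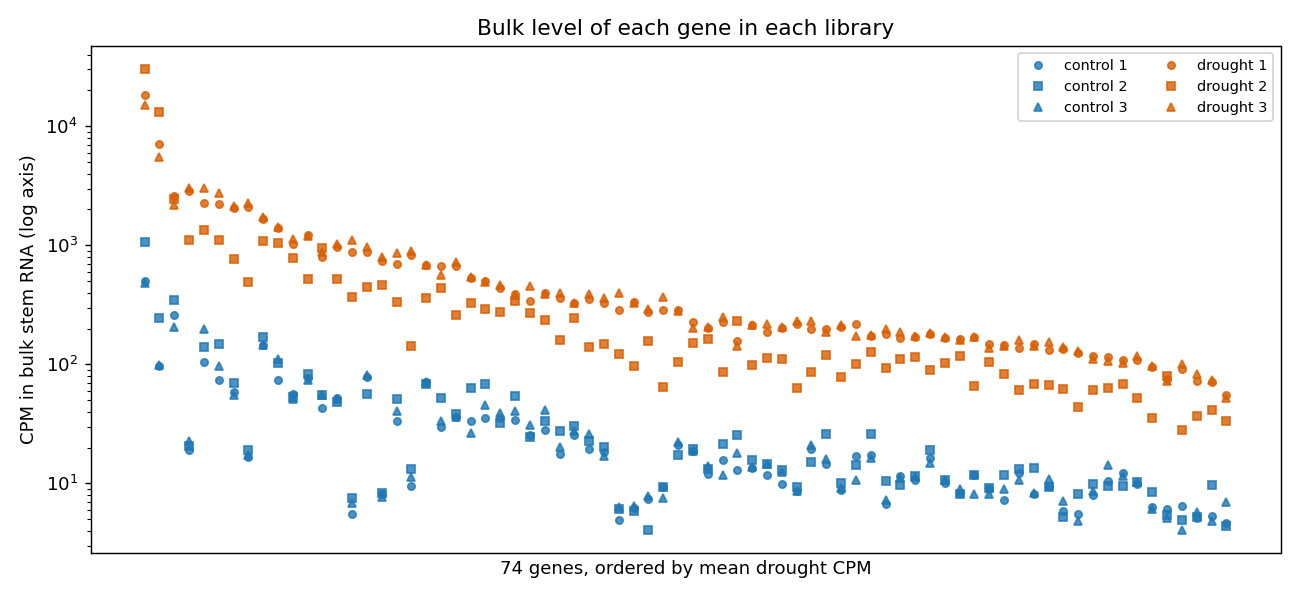
Bulk CPM (log axis) of each of the 74 genes in the 3 control libraries (blue) and the 3 drought libraries (orange), 1 column of points per gene, ordered by mean drought CPM. Drought library 2 (orange squares) is the lowest drought library in 68 genes and the highest in 5, the first pair on the left among them.

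A pair of genes carried much of the drought share. PtXaAlbH.13G084200 stood at 497, 1074 and 482 CPM in the controls and at 18311, 30278 and 15075 CPM under drought, means of 684 ± 337 and 21222 ± 8009 (SD, n = 3). Its neighbour in the ID order, PtXaAlbH.13G084300, stood at 96.9, 247 and 99.7 CPM in the controls and at 7096, 13138 and 5540 CPM under drought, 58.1 times higher on the means. Both genes were highest in library 2 of each group, and the groups did not overlap, as the selection required. Together they took 2.54%, 4.34% and 2.06% of all counts in the drought libraries, against 0.0594%, 0.132% and 0.0582% in the controls. Ordered by counts, with no correction for gene length, PtXaAlbH.13G084200 went from rank 37 to 173 in the controls to rank 1 in every drought library, and PtXaAlbH.13G084300 from rank 516 to 2171 to rank 2 to 3.

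PtXaAlbH.11G081500 rose from 19.1, 20.8 and 22.7 CPM to 2854, 1102 and 3003 CPM, a ratio of 111. PtXaAlbH.09G096800 started higher, at 262, 345 and 205 CPM, and stood at 2588, 2467 and 2183 CPM, a ratio of 8.92. In the first gene drought library 2 held less than any other drought library, and in the second the 3 drought libraries lay close together. PtXaAlbH.05G059900 stood at 105, 139 and 200 CPM in the controls and at 2257, 1338 and 3053 CPM under drought. PtXaAlbH.13G054400 stood at 73.7, 147 and 97.4 CPM against 2217, 1099 and 2742 CPM. Drought library 2 was again the lowest of its group in both genes. PtXaAlbH.01G321700 stood at 58.8, 69.8 and 55.3 CPM against 2058, 762 and 2156 CPM, and PtXaAlbH.16G037300 at 16.8, 19.1 and 17.3 CPM against 2106, 496 and 2254 CPM. PtXaAlbH.04G060700 stood at 144, 171 and 145 CPM against 1672, 1096 and 1734 CPM, and PtXaAlbH.06G073900 at 73.9, 102 and 110 CPM against 1400, 1038 and 1433 CPM. In these 4 genes drought libraries 1 and 3 were nearly equal and library 2 was lower, most so in PtXaAlbH.16G037300. With the leading pair these were the 10 genes highest by mean drought CPM.

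The largest ratio of the set, 118, belonged to PtXaAlbH.10G155800, which stood at 5.53, 7.62 and 6.91 CPM in the controls and at 887, 369 and 1115 CPM under drought. The next were PtXaAlbH.11G081500 at 111, PtXaAlbH.16G037300 at 91.4 and PtXaAlbH.07G073700 at 83.4. PtXaAlbH.07G073700 stood at 8.09, 8.27 and 7.66 CPM in the controls and at 745, 461 and 797 CPM under drought. In these 4 genes the controls lay close together, and drought library 2 was the lowest drought library. PtXaAlbH.04G060200 followed PtXaAlbH.13G084300 in the order, with a ratio of 54.6, from 9.48, 13.3 and 11.4 CPM to 830, 142 and 894 CPM. Its value in drought library 2 was 0.164 times the mean of the other drought libraries.

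The set has no natural edge at its limits. At the control level, PtXaAlbH.15G080300, PtXaAlbH.06G138300 and PtXaAlbH.06G186100 were just inside with means of 5.17, 5.36 and 5.37 CPM. PtXaAlbH.15G024800, PtXaAlbH.06G145200 and PtXaAlbH.08G050800 were just outside with 4.89, 4.83 and 4.56 CPM. At the ratio of means, PtXaAlbH.17G032900, PtXaAlbH.04G002300 and PtXaAlbH.17G070500 were inside at 8.01, 8.18 and 8.35. Outside it, genes of nearly the same ratio were left out. These were PtXaAlbH.11G083600, PtXaAlbH.06G204200 and PtXaAlbH.19G067600, at 7.75, 7.57 and 7.51. At the limit on the lowest drought against the highest control library, PtXaAlbH.06G182600, PtXaAlbH.18G019500 and PtXaAlbH.12G072300 were inside at 4.06, 4.10 and 4.16, and PtXaAlbH.08G053700, PtXaAlbH.10G084400 and PtXaAlbH.05G189600 were outside at 3.94, 3.90 and 3.86. Gene PtXaAlbH.15G024800, just outside the first limit, had a ratio of 45.1.

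Among the drought libraries, the 74 genes were not equally raised. Drought library 2 was the lowest of the 3 in 68 genes, the highest in 5 and between in 1. Its CPM divided by the mean of drought libraries 1 and 3 had a median of 0.522, a range of 0.164 to 2.08, and was under 0.5 in 34 genes. The same ratio had a median of 1.06 over the 18939 genes with a mean control CPM of 5 or more, and of 0.679 over the 1412 of them raised at least 2-fold in both other drought libraries. Drought libraries 1 and 3 were close to each other, their ratio having a median of 1.03 and a range of 0.781 to 1.39. Control library 2 was the highest control in 44 of the 74 genes, and its ratio to the mean of the other controls had a median of 1.11 and a range of 0.534 to 2.51. The lowest ratios of drought library 2 were 0.164 in PtXaAlbH.04G060200, 0.197 in PtXaAlbH.17G116800, 0.227 in PtXaAlbH.16G037300 and 0.283 in PtXaAlbH.10G181400. PtXaAlbH.17G116800 stood at 289, 64.6 and 365 CPM under drought and PtXaAlbH.10G181400 at 220, 63.8 and 231 CPM, each below 10 CPM in every control library. The highest ratios were 2.08 in PtXaAlbH.13G084300, 1.81 in PtXaAlbH.13G084200, 1.54 in PtXaAlbH.09G096700 and 1.13 in PtXaAlbH.01G070600. PtXaAlbH.09G096700 stood at 13.1, 25.5 and 17.9 CPM in the controls and at 156, 230 and 142 CPM under drought. PtXaAlbH.01G070600 stood at 43.2, 55.8 and 55.0 CPM in the controls and at 794, 944 and 872 CPM under drought, the 3 drought libraries lying close together. The rule asks every drought library to be high, so the lowest library decides which genes enter. Without drought library 2 the same rule gave 131 genes, 73 of the 74 among them.

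**Figure D2:**
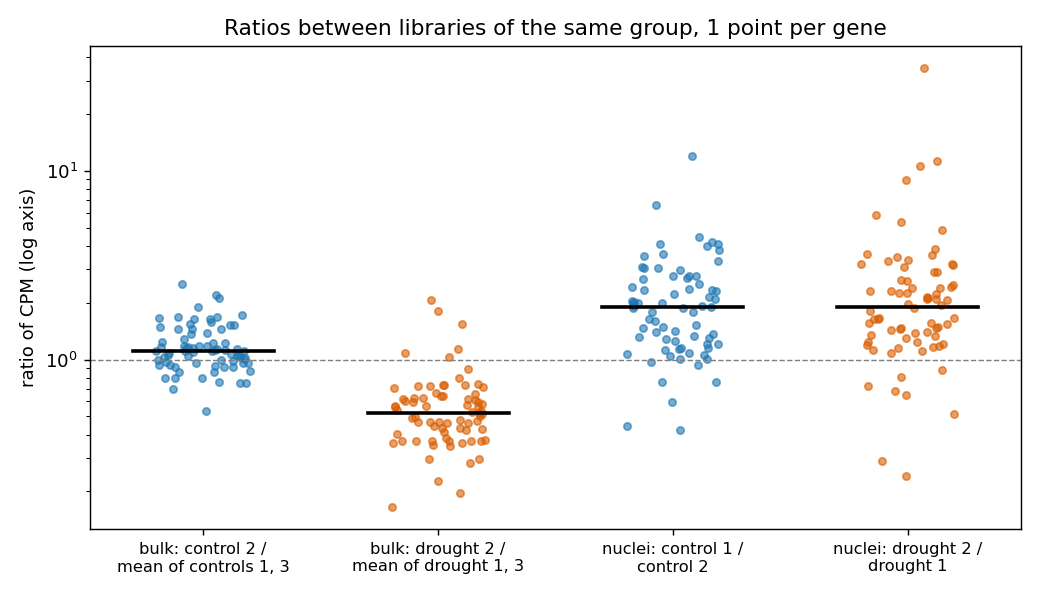
Ratio of CPM (log axis) between libraries of the same group, 1 point per gene, with the median as a bar; genes with a 0 in the denominator are not drawn. Bulk drought library 2 lies below the other drought libraries (median 0.522), nuclei control library 1 above control library 2 (median 1.89) and nuclei drought library 2 above drought library 1 (median 1.91).

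Some members lie beside each other in the order of the IDs. There were 5 pairs of members within 5 listed IDs, holding 10 of the 74 genes. In 4 pairs the IDs were adjacent: PtXaAlbH.06G186100 with PtXaAlbH.06G186200, PtXaAlbH.09G096700 with PtXaAlbH.09G096800, PtXaAlbH.13G084200 with PtXaAlbH.13G084300, and PtXaAlbH.17G032900 with PtXaAlbH.17G033000. PtXaAlbH.04G060200 and PtXaAlbH.04G060700 were 5 IDs apart. The drought to control ratios of these pairs were 12.0 and 12.6, 9.37 and 8.92, 31.0 and 58.1, 8.01 and 9.34, and 54.6 and 9.79, in the order given. How reads that match both genes of a pair were counted is not given in the sources used here, so near-identical copies could share counts. The 140 other genes next to a member had a median log2 ratio of drought to control of 0.05, against -0.02 in the remaining genes, and 12.9% of them reached a 2-fold rise, against 6.75%. By the chromosome number in the ID, members fell on 18 of 19 chromosomes, with 9 genes (12.2%) on chromosome 6, which holds 7.38% of all genes, and none on chromosome 19, which holds 3.40%.

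The ratio within the leading pair changed in bulk. PtXaAlbH.13G084200 had 5.13, 4.35 and 4.84 counts for each count of PtXaAlbH.13G084300 in the bulk controls, and 2.58, 2.30 and 2.72 in the bulk drought libraries. In nuclei the ratio was 2.44 and 2.28 in the controls and 2.74 and 2.48 under drought. The bulk controls were thus the only libraries of the 10 in which the ratio exceeded 4. Gene length does not enter the comparisons within an assay, since the same genes are divided in every library. It can enter those between assays, since bulk counts are reads and nuclei counts are UMIs. The ratios of the assays were therefore not compared further.

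The nuclei libraries were not used to choose the genes. Of the 74 genes, 73 had UMIs in all 4 libraries, with 11 to 12369 UMIs per gene in total and a median of 182.5. The set took 0.258% and 0.138% of UMIs in the control nuclei and 0.570% and 0.840% in the drought nuclei. PtXaAlbH.13G084200 and PtXaAlbH.13G084300 made up 0.368% and 0.424% of all UMIs in the drought nuclei, more than all other genes of the set together in both libraries, and 0.0210% and 0.0191% in the controls. In the controls the set's share in nuclei was within or below the range of bulk, whereas under drought it was far below the 6.17% to 6.46% of bulk.

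Gene by gene, the drought gap between the assays was wide. The log2 ratio of nuclei CPM to bulk CPM, with 1 CPM added to each, had a median of -0.59 over the 74 genes in the controls and of -3.32 under drought. Over the 18939 genes with a mean control CPM of 5 or more, the medians were 0.05 and 0.29. Under drought 73 of the 74 genes were lower in nuclei than in bulk, against 42.1% of those genes, and in the controls 43 of the 74 were, against 48.4%. Bulk exceeded nuclei under drought by a median factor of 11.0, by at least 10-fold in 39 genes and by at least 100-fold in 8, against 6 genes with at least 10-fold in the controls. The factor was 307 in PtXaAlbH.11G081500, 184 in PtXaAlbH.05G059900 and 183 in PtXaAlbH.10G155800, and it was 7.42 in PtXaAlbH.13G084200 and 0.826 in PtXaAlbH.16G101000. The genes were selected on high bulk drought values, which by itself places bulk above nuclei on average.

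Drought raised part of the set in nuclei, and by less. UMIs were summed per library, and drought was tested against control in 2 against 2 libraries with edgeR's quasi-likelihood test, and p-values were adjusted by Benjamini-Hochberg over all genes tested. A gene was called when its adjusted p was below 0.05. Of the 74 genes, 66 passed the filter on low counts, and 16 of the 66 (24.2%) were called higher under drought, against 3.63% of the 20768 genes tested. No gene of the set was called lower, against 5.21% of all genes, and DESeq2 and limma-voom also called 0 lower. At an unadjusted p below 0.05, edgeR had 28 of the 66 higher and 2 lower. The share of all genes at that threshold was not computed, so these counts are not read as a trait of the set. Of the 74 genes, 54 had at least 10 UMIs in each control library, and a fit filtered in that way, whatever the drought libraries held, called 15 of them, against 3.47% of the 20570 genes in that fit called higher.

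The size of the change in nuclei was smaller than in bulk. The median log2 fold change in nuclei was 0.87 over the 66 genes, with a range of -2.18 to 4.31, against 0.01 over all genes tested. The median log2 bulk ratio of the same 66 genes was 3.71. In nuclei 55 of the 66 genes had a positive log2 fold change and 11 a negative one, and 2 reached 3. Both drought libraries were above both controls in 35 of the 66 genes, against 29.5% of all genes tested, and below both in 1, against 25.5%. In the other 30 genes the libraries of the groups overlapped. Called genes had a median bulk ratio of 13.4 and a range of 8.01 to 58.1, and the 50 that were tested and not called had a median of 12.9 and a range of 8.18 to 118. Of the 21 genes with a bulk ratio of 16 or more, 16 were tested in nuclei and 3 were called.

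**Figure D3:**
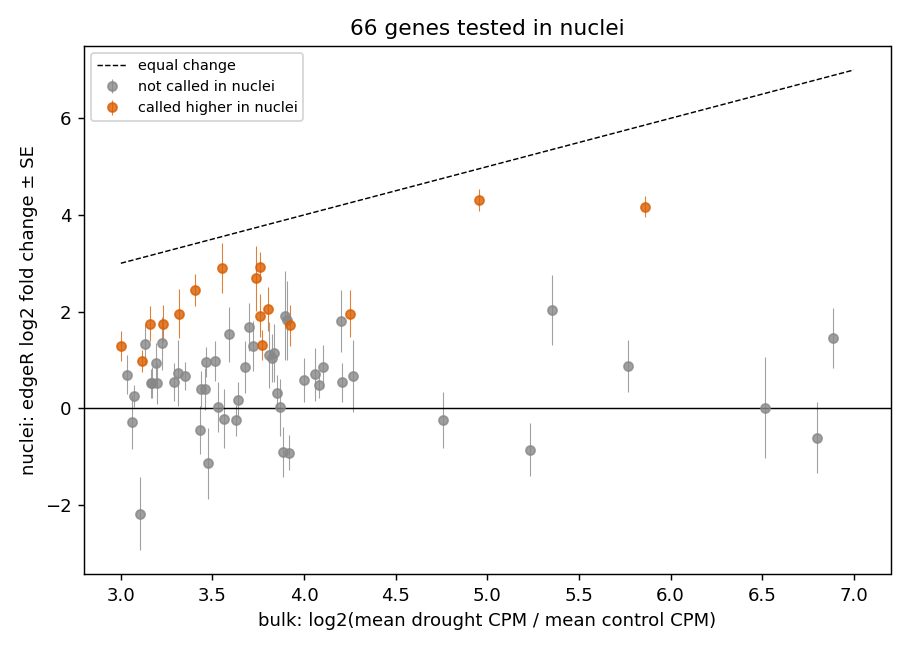
Nuclei log2 fold change of drought against control with its standard error, against the bulk log2 ratio of means, for the 66 genes tested in nuclei; the dashed line marks equal change. The 16 genes called in nuclei (orange) have bulk ratios of 8.01 to 58.1, and every gene lies below the line.

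The leading pair of bulk was the leading pair in nuclei. PtXaAlbH.13G084200 stood at 149 and 133 CPM in the control nuclei and at 2698 and 3023 CPM in the drought nuclei. PtXaAlbH.13G084300 stood at 61.2 and 58.1 CPM against 984 and 1218 CPM. In both genes the libraries of a group lay close together and far from the other group. The log2 fold changes were 4.31 (SE 0.22) and 4.17 (SE 0.22), with an adjusted p of 3.75e-05 for each by edgeR's quasi-likelihood test. PtXaAlbH.04G067900, low in bulk at a control mean of 5.58 CPM, stood at 5.98 and 5.23 CPM in the control nuclei and at 40.9 and 47.1 CPM under drought. This made a log2 fold change of 2.93 (SE 0.30, edgeR adjusted p = 0.00146). PtXaAlbH.16G101000 stood at 15.6 and 37.2 CPM against 94.8 and 304 CPM, and PtXaAlbH.03G138600 at 8.28 and 6.88 CPM against 32.1 and 53.1 CPM. Neither overlapped between the groups, and drought library 2 was the higher drought library in both. Their log2 fold changes were 2.91 (SE 0.52, edgeR adjusted p = 0.0121) and 2.45 (SE 0.34, edgeR adjusted p = 0.00485). These 5 genes were also called under each of the 13 alternative settings.

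The other 11 called genes were not called under every setting. PtXaAlbH.10G006700 stood at 2.07 and 1.10 CPM in the control nuclei and at 5.18 and 16.5 CPM under drought. These were 9 and 4 UMIs in the controls against 10 and 33 under drought. The gene entered the test only through the drought libraries, so its call adds no support. PtXaAlbH.15G073600 stood at 7.59 and 2.75 CPM against 20.7 and 24.6 CPM, and PtXaAlbH.18G095600 at 6.90 and 9.08 CPM against 14.5 and 48.6 CPM. None of the 3 overlapped between groups, and drought library 2 was the higher drought library in each. PtXaAlbH.13G054400 stood at 177 and 65.5 CPM in the control nuclei and at 267 and 694 CPM under drought, with a fold change of 1.95 on the log2 scale (SE 0.49) with an edgeR adjusted p of 0.0359. PtXaAlbH.06G073900, PtXaAlbH.09G096800 and PtXaAlbH.09G096700 had log2 fold changes of 1.92, 1.75 and 1.75, and PtXaAlbH.17G032900 of 1.29. The others, named here because they complete the count, were PtXaAlbH.06G194900 at 1.71, PtXaAlbH.01G220900 at 1.31 and PtXaAlbH.05G016100 at 0.97. Without nuclei drought library 2 none of the 11 was called, in a fit of 2 control libraries against 1, with edgeR adjusted p-values of 0.0748 to 0.343. Their log2 fold changes all stayed positive there, at 0.65 to 1.92, against 0.97 to 2.69 with all libraries. In PtXaAlbH.15G073600 the value was 1.92 against 2.06 and in PtXaAlbH.09G096800 1.61 against 1.75, whereas in PtXaAlbH.13G054400 it was 1.09 against 1.95. In that fit 5 of 69 genes of the set were called higher, against 1.58% of the 22195 genes tested. Without control library 1, 31 of 69 genes of the set were called higher, against 4.51% of 20752 genes.

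Of the 66 genes tested in nuclei, 50 were not called, with bulk ratios from 8.18 to 118. PtXaAlbH.11G081500 stood at 17.9 and 4.40 CPM in the control nuclei and at 2.59 and 12.5 CPM under drought, with a log2 fold change of -0.61 (SE 0.73, edgeR adjusted p = 0.670). PtXaAlbH.16G037300 stood at 66.3 and 5.50 CPM against 2.07 and 72.7 CPM, with a log2 fold change of 0.01 (SE 1.05). In both genes control library 1 and drought library 2 were high and the other libraries low. PtXaAlbH.04G060700 stood at 352 and 167 CPM against 235 and 540 CPM, with a log2 fold change of 0.54 (SE 0.40, edgeR adjusted p = 0.449). PtXaAlbH.14G139300 stood at 122 and 59.7 CPM against 70.4 and 139 CPM, and PtXaAlbH.01G321700 at 39.3 and 22.0 CPM against 7.77 and 45.1 CPM. The groups overlapped in all 3. PtXaAlbH.10G155800, with the largest bulk ratio, had only 29 UMIs in all, at 1.15 and 1.93 CPM against 3.63 and 5.01 CPM. Its log2 fold change of 1.46 (SE 0.62) was not called, with an edgeR adjusted p of 0.184. PtXaAlbH.01G070600 stood at 22.3 and 29.4 CPM against 31.6 and 42.1 CPM, a log2 fold change of 0.48. PtXaAlbH.05G059900 stood at 4.37 and 2.20 CPM against 2.07 and 22.1 CPM, so that drought library 2 alone was high. Of the 8 genes left untested for low counts, PtXaAlbH.07G073700 had 36 UMIs, PtXaAlbH.17G116800 27 and PtXaAlbH.10G181400 20, and at this depth they were not tested.

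The lowest nuclei value belonged to PtXaAlbH.06G014000, which is named after its values were seen. It stood at 134 and 35.2 CPM in the control nuclei and at 3.11 and 35.1 CPM under drought, with a log2 fold change of -2.18 (SE 0.76, edgeR adjusted p = 0.108). In bulk it was raised like the rest of the set. Control library 2 and drought library 2 were nearly equal, so that the difference came from the other pair of libraries. It was called lower without control library 2 and without drought library 2, with log2 fold changes of -2.85 and -4.81.

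The libraries of a group differed in nuclei for the set as a whole. Control library 1 exceeded control library 2 in 67 of the 74 genes, with a median CPM ratio of 1.89 and a highest ratio of 12.0. Drought library 2 exceeded drought library 1 in 66 genes, with a median ratio of 1.91 and a highest ratio of 35.1. Over the 16613 genes with a mean nuclei CPM of at least 10, these median ratios were 0.991 and 0.986. Most genes of the set thus shifted in the same direction between libraries of a group, whereas the 16613 genes showed no shared shift. These medians do not tell how far a single gene varied. The set's calls move with the library left out. Each library is 1 plant, so plant and library cannot be told apart.

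Nuclei were then clustered to ask in which kinds of nuclei the set changed. Clusters were made without the 74 genes and without the genes called in the nuclei test, 1893 in all. Of 16950 nuclei with at least 200 genes, 2 called doublets were removed, and the other 16948 fell into 17 clusters, of which 14 held at least 30 nuclei in every library and were tested separately by summed UMIs. Across these clusters 189 tests covered 43 of the 74 genes. Of the 189, 41 were called higher under drought (21.7%), against 0.841% of all 68608 tests, and 2 were called lower, against 1.2%. The calls fell on 11 genes. PtXaAlbH.13G084200 and PtXaAlbH.13G084300 gave 26 of the higher calls, and without them 15 of 161 tests (9.32%) were called higher. A gene can pass the low-count filter through its drought libraries alone, so a fit of genes with at least 10 UMIs in each control library of the cluster was added after seeing the data. It covered 108 tests of 29 genes of the set, and 16 (14.8%) were called higher, against 0.568% of 74428 tests, and 4 lower, against 1.22%. Without the leading pair 5 of 97 tests were called higher there, PtXaAlbH.13G054400 in clusters 1 and 3, PtXaAlbH.05G016100 in cluster 1, PtXaAlbH.04G060700 in cluster 3 and PtXaAlbH.01G220900 in cluster 5. The lower calls were PtXaAlbH.06G014000 in clusters 7 and 8, PtXaAlbH.10G045600 in cluster 8 and PtXaAlbH.09G029100 in cluster 14. That filter selects on the controls, where these genes are high, so the lower calls add no support. Clusters with few nuclei have few UMIs, and 31 genes of the set passed the filter in no cluster.

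PtXaAlbH.13G084200 was raised in nearly every cluster. It was tested in 14 clusters and called higher in 13. With at least 10 UMIs required in each control library of the cluster, it was called higher in clusters 1, 2, 3, 4, 5, 7, 8 and 13. Its calls elsewhere were not kept by that filter and add no support. In cluster 12, which holds 292 nuclei, it stood at 109 and 84.1 CPM in the controls and at 1250 and 2390 CPM under drought, with a fold change of 4.24 on the log2 scale (SE 0.77) that was not called, with an edgeR adjusted p of 0.0806. In the controls the level of PtXaAlbH.13G084200 stood apart in cluster 8, led by PtXaAlbH.03G169600, at 1461 and 833 CPM, while the other 13 clusters ran from 18.0 to 374 CPM. Under drought cluster 8 was at 6080 and 6433 CPM, and all 14 clusters ran from 854 to 8538 CPM in library 1 and from 892 to 6433 CPM in library 2. In each of the 14 clusters both drought values were above both control values. The log2 fold change was lowest in cluster 8, at 2.43 (SE 0.47, edgeR adjusted p = 0.0499), and highest in cluster 7, led by PtXaAlbH.02G152700, at 6.01 (SE 0.56). Cluster 7 went from 53.0 and 94.7 CPM to 4672 and 4743 CPM. Cluster 8 held 45.3% of the gene's control UMIs in these clusters and 12.8% of its drought UMIs, whereas cluster 1, the largest, held 22.3% and 49.4%. Cluster 1 also held more of the nuclei under drought, 37.8% and 37.9% against 16.7% and 27.2% in the controls. The part of cluster size in these shares was not tested.

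**Figure D4:**
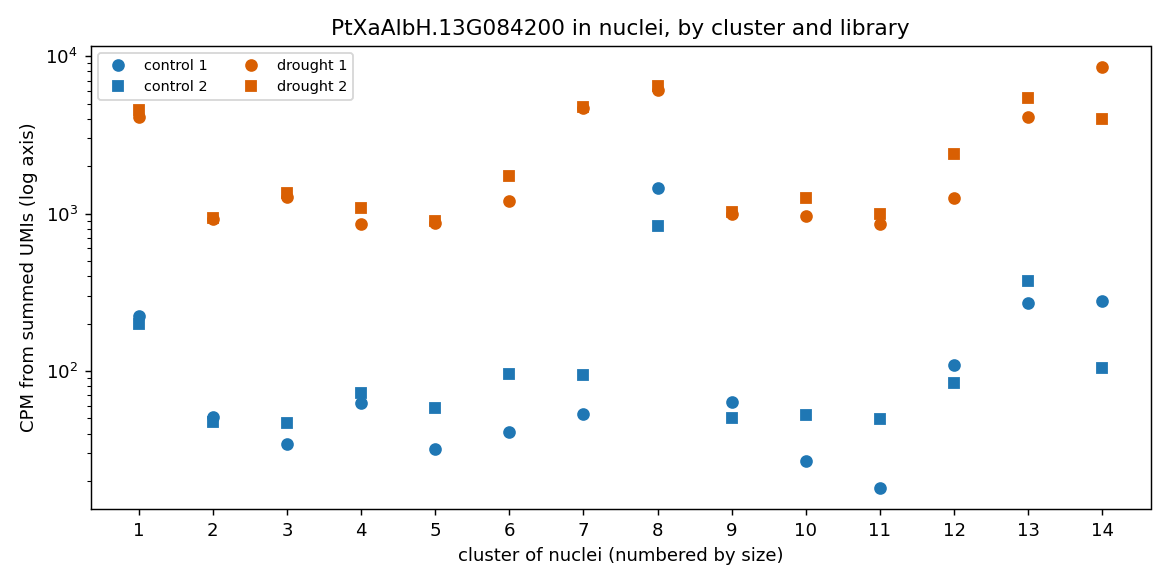
CPM of PtXaAlbH.13G084200 from summed UMIs (log axis) in the 14 tested clusters of nuclei, 1 point per library. Control nuclei of cluster 8 are at 1461 and 833 CPM and those of the other clusters at 18.0 to 374 CPM, while drought nuclei are at 854 CPM or more in every cluster.

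PtXaAlbH.13G084300 was also called higher in 13 of 14 clusters, with cluster 12 the exception. With at least 10 UMIs required in each control library of the cluster, it was called higher in clusters 1, 2 and 8 alone. Its calls elsewhere were not kept by that filter and add no support. Its controls in cluster 8 were at 568 and 440 CPM, and it had no UMI in the controls of cluster 11, where the drought libraries were at 347 and 296 CPM. Its log2 fold change was 2.46 in cluster 8, 3.34 in cluster 14 and 5.85 in cluster 7. Under drought the ratio of PtXaAlbH.13G084200 to PtXaAlbH.13G084300 ran from 2.19 to 3.16 across the 14 clusters. Barcodes with fewer than 200 genes, which were left out of the clusters, also held PtXaAlbH.13G084200 under drought, at 3655 and 3604 CPM, against 2589 and 2883 CPM in the barcodes kept. The whole set took 0.715% and 0.925% of UMIs in those barcodes and 0.553% and 0.819% in the barcodes kept. RNA from outside the nuclei gives UMIs in every cluster, and its part in these levels was not tested.

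Whether drought changed a gene differently among clusters was tested in 1 edgeR quasi-likelihood fit with library and cluster as terms. Of the 39 genes of the set that could be tested, 8 were called, against 2.45% of 10809 genes. A gene could pass the low-count filter of this fit through drought libraries alone, and no fit filtered on the controls was run. The count is therefore not read as support. The adjusted p by this edgeR test was 1.72e-15 for PtXaAlbH.13G084200 and 5.97e-10 for PtXaAlbH.13G084300. For PtXaAlbH.04G060700 it was 3.36e-06, for PtXaAlbH.16G101000 2.80e-05 and for PtXaAlbH.09G029100 5.60e-05. For PtXaAlbH.13G054400 it was 9.37e-05, for PtXaAlbH.16G037300 0.0103 and for PtXaAlbH.04G067900 0.0208. Without control library 1, 1 gene of the set was called. In PtXaAlbH.04G060700 none of its 14 tests by cluster was called, and the log2 fold changes ran from -0.95 in cluster 13 to 1.51 in cluster 3. With at least 10 UMIs required in each control library of the cluster, it was called higher in cluster 3. Its log2 fold change there was 1.60 (edgeR adjusted p = 0.0179). In cluster 3 it stood at 125 and 74.6 CPM in the controls and at 165 and 412 CPM under drought, without overlap. In PtXaAlbH.16G101000 the drought effect was called in 5 of 8 clusters and ran from -0.64 in cluster 13 to 3.70 in cluster 3. There it went from 15.7 and 14.0 CPM to 90.0 and 302 CPM, so that all drought values of that cluster were above its controls. With at least 10 UMIs required in each control library of the cluster, PtXaAlbH.16G101000 was called in no cluster. Its 5 calls thus depend on the low-count filter and add no support.

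**Figure D5:**
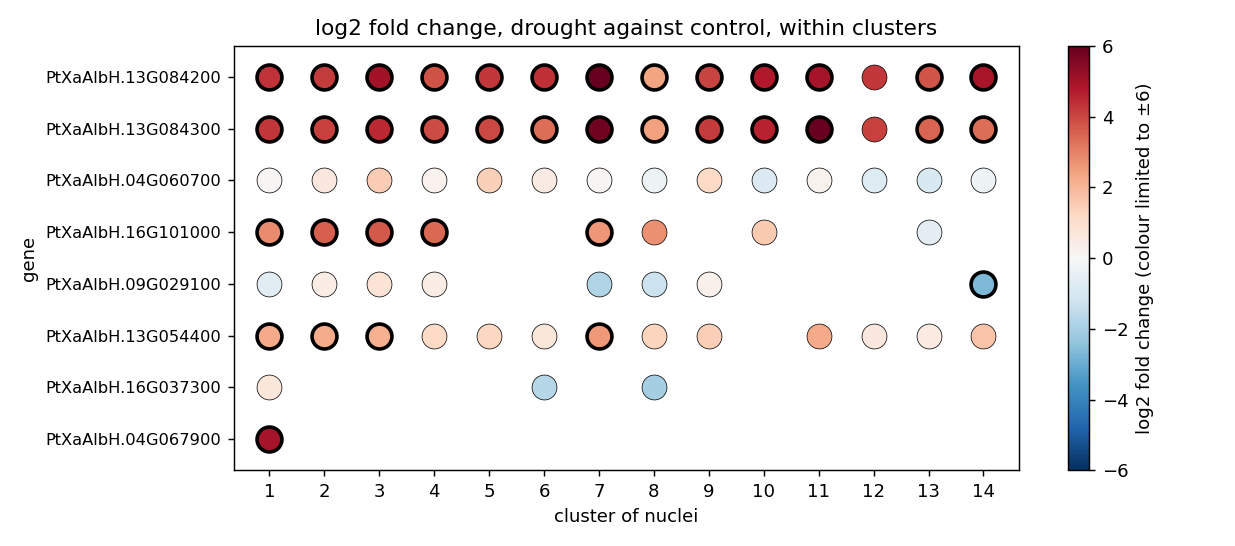
Log2 fold change of drought against control (colour, limited to ±6) in each tested cluster of nuclei, for the 8 genes called in the test of differences between clusters. A thick outline marks a call and an empty place a gene not tested there. PtXaAlbH.13G084200 is positive in all 14 clusters, while PtXaAlbH.09G029100 is positive in 4 clusters and negative in 4; for PtXaAlbH.13G084300 in cluster 11 both controls are at 0, and the colour there depends on the fit.

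PtXaAlbH.13G054400 was positive in all 13 clusters where it was tested, with log2 fold changes of 0.53 to 2.62, and was called in 4. With at least 10 UMIs required in each control library of the cluster, it was called in clusters 1 and 3. It was highest in cluster 12 in each of the 4 libraries, at 1364 and 399 CPM in the controls and at 677 and 1958 CPM under drought. In cluster 7, the largest of its changes, it went from 57.1 and 31.6 CPM to 206 and 373 CPM without overlap. PtXaAlbH.16G037300 was tested in 3 clusters and called in none. Its UMIs in cluster 8 came from control library 1, at 488 CPM, and drought library 2, at 116 CPM, against 13.5 CPM in control library 2 and 0 in drought library 1. That pattern of high control 1 and high drought 2 is the one described for the set as a whole.

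A pair of genes was called lower under drought within a cluster. PtXaAlbH.09G029100 stood at 768 and 762 CPM in the controls of cluster 14, led by PtXaAlbH.08G109300, and at 84.5 and 154 CPM under drought, with a fold change of -2.71 on the log2 scale (SE 0.69, edgeR adjusted p = 0.00289). Elsewhere its values ran up to 0.83, in cluster 3, where it was not called, and in whole nuclei it was at 118 and 50.9 CPM against 28.0 and 98.3 CPM. In bulk the same gene stood at 25.4, 30.2 and 27.7 CPM in the controls and at 329, 244 and 326 CPM under drought. PtXaAlbH.06G014000 was lower in cluster 7, at 705 and 179 CPM in the controls and at 10.3 and 96.8 CPM under drought, with a log2 fold change of -3.19 (SE 0.73, edgeR adjusted p = 0.0190). Neither gene overlapped between the groups in its cluster, and both rest on few drought UMIs. Both passed the low-count filter through the control libraries, where they are high, so these calls add no support.

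Of the 34 genes with at least 200 UMIs, 3 were highest in the same cluster in all 4 libraries. The share over all genes was not computed, so this count is not read as a trait of the set. At this depth the highest cluster of a gene can rest on few UMIs. PtXaAlbH.04G067900 was highest in cluster 14, at 279 and 105 CPM in the controls and 211 and 461 CPM under drought, on average 12.4 times its level in the other nuclei and at least 5.74 times in every library. In that cluster the groups overlapped. In cluster 1, led by PtXaAlbH.16G009000, it stood at 2.17 and 1.45 CPM in the controls and at 60.5 and 64.2 CPM under drought, on 1 UMI in each control library and 31 and 32 UMIs under drought. It entered the test of that cluster only through the drought libraries, so its call there adds no support. The others were PtXaAlbH.13G054400 in cluster 12 and PtXaAlbH.01G321700 in cluster 13, at 3.93 and 4.33 times the other nuclei on average. PtXaAlbH.03G138600 was called higher in clusters 1 and 2 of the 3 in which it was tested. Its controls held 6 and 6 UMIs in cluster 1 and 5 and 5 in cluster 2. The filter on UMIs in each control library kept neither call, so they add no support. Of the set's other calls, PtXaAlbH.05G016100 was called in cluster 1, also under that filter. PtXaAlbH.02G069800 was called in cluster 7, on 4 and 2 UMIs in the controls against 7 and 6 under drought. That call was not kept by the filter and adds no support. PtXaAlbH.06G073900 was called in cluster 1, at 4.34 and 1.45 CPM against 29.3 and 48.1 CPM. These were 2 and 1 UMIs in the controls against 15 and 24 under drought, so it too was tested only through the drought libraries.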

How the data were processed

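The authors deposited raw read counts per gene for 6 bulk libraries and raw UMI counts per feature and barcode for 4 nuclei libraries, per the labels and the file headers. HISAT2 appears in the submitters' processing notes with no version or role. Sources used here do not give the genome build, the counting tool, its strand setting or the barcode selection. Reads of overlapping, antisense and near-identical genes may therefore be shared. The deposited IDs come without gene names, so pathway lists and cell type markers were not used. Ribosomal and transfer RNA features (25) held 0.0574% to 0.478% of nuclei UMIs and were left out.

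Members and tests were chosen with earlier results of these data known. Bulk CPM came from column totals. UMIs of all barcodes were summed per library and tested with edgeR 4.0.16 in R 4.3.3 (TMM, filterByExpr), with library as the replicate. DESeq2 1.42.0 and limma 3.58.1 were alternatives. Standard errors were taken from the F statistic, as the size of the log2 fold change over the root of F. Nuclei were clustered with scanpy 1.11.5, from 2000 variable genes, 30 components and the Leiden method at resolution 0.5; 2 doublets were called among 16950 nuclei and removed, so the caller is taken not to have worked and doublets remain among the 16948 kept. CPM of a cluster uses that cluster's own UMIs. The leading gene of a cluster is the one highest over the other nuclei in the least favourable library, with 20 CPM added. The fits were checked on simulated data. Replicates differed by more than sampling noise, with a chi-square per degree of freedom of 10.1 to 158 in bulk and 5.43 and 4.30 in nuclei.

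Named genes were those highest by mean drought CPM (10), by mean control CPM (6) and by bulk ratio (6), those beside each limit (3 a side), and those with extreme ratios of drought library 2 (4 a side). In nuclei they were the called genes with the largest changes (8) and any called lower, those with most UMIs (5), those called in most clusters (5) and those with the smallest cluster-by-drought p (5).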

Additional observations from a re-analysis of the deposited data

Results flagged for a closer look

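By the edgeR test of the cluster-by-drought terms, 8 of 39 genes of the set were called, against 2.45% of 10809 genes. Adjusted p-values by that test were 1.72e-15 (PtXaAlbH.13G084200), 5.97e-10 (PtXaAlbH.13G084300), 3.36e-06 (PtXaAlbH.04G060700) and 2.80e-05 (PtXaAlbH.16G101000). The rest were at 5.60e-05 (PtXaAlbH.09G029100), 9.37e-05 (PtXaAlbH.13G054400), 0.0103 (PtXaAlbH.16G037300) and 0.0208 (PtXaAlbH.04G067900) by the same test. Genes could enter that fit through drought libraries alone, so the count is not read as support. It was lower in every fit with 1 library left out. In PtXaAlbH.09G029100 the values pointed in opposite directions, at -2.71 in cluster 14 and 0.83 in cluster 3 on the log2 scale. The call in cluster 14 adds no support, since the gene was tested there through its controls, and cluster 3 was not called.

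In PtXaAlbH.06G014000 and PtXaAlbH.10G181400 every bulk drought library was above every bulk control, while both nuclei drought libraries were below both nuclei controls. The nuclei CPM ratio of drought to control was 0.225 and 0.682. The difference between the assays was not tested, and PtXaAlbH.10G181400 rests on 20 UMIs.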

How the results depend on the processing

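The number of genes in the set was 127 with a control mean of 2 CPM, 21 with a ratio of 16, 82 with TMM-scaled CPM (73 shared), and 69 to 131 with 1 bulk library left out, 131 without drought library 2. The counts of calls under alternative settings below are given without the share of all genes called, which changes with the setting. Such counts are not read as a trait of the set. Genes of the set called in nuclei numbered 16 (all higher). They were 10 with only barcodes of at least 200 genes (10 higher), and 7 to 31 with 1 library left out, with 5 to 31 higher and 0 to 5 lower. Without a filter on low counts 2 were lower, PtXaAlbH.10G045600 and PtXaAlbH.06G014000. The 5 called lower without control library 2 were these, PtXaAlbH.16G074500, PtXaAlbH.09G029100 and PtXaAlbH.08G080200. The replicate block gave 15 calls, all higher, and 49 calls within clusters, against 43. Labels give the numbers no shared origin, and deviations of same-numbered nuclei libraries correlated at -0.122. The crossed pairing, chosen after seeing the data, gave 27 calls, 24 higher and 3 lower. The median nuclei log2 fold change stayed positive in every setting run, at 0.39 to 1.30. Calls within clusters were 21 when sums were thinned to the smallest cluster and 20 with at least 10 UMIs in each control library, chosen after seeing the data; fewer genes of the set were tested in both. They were 41 to 65 with 1 library left out. Cluster-by-drought calls were 1 to 7 with 1 library left out, at 1 without control library 1 and 5 without drought library 2. Except where stated, the cause was not tested. Over 66 genes, 720 of 836 alternative values of the nuclei log2 fold change kept their direction and their side of the threshold, 46 gained a call, 30 lost one and 40, in 22 genes, changed sign, of which 0 were called. With 1 library left out, the log2 fold changes of these genes ran from -0.49 to 1.36 in PtXaAlbH.01G318500, -2.03 to 0.52 in PtXaAlbH.01G321700, -0.19 to 1.18 in PtXaAlbH.04G060700, -0.72 to 2.68 in PtXaAlbH.05G059900, -0.023 to 2.05 in PtXaAlbH.05G084700, -0.63 to 1.25 in PtXaAlbH.06G182600, -0.23 to 1.00 in PtXaAlbH.08G028300, -1.72 to 0.10 in PtXaAlbH.08G080200, -1.64 to 0.28 in PtXaAlbH.09G029100, -0.28 to 2.88 in PtXaAlbH.09G113400, -0.47 to 0.82 in PtXaAlbH.10G010000, -0.029 to 1.17 in PtXaAlbH.10G164800, -2.16 to 0.75 in PtXaAlbH.11G081500, -1.27 to 1.07 in PtXaAlbH.12G018500, -0.10 to 0.76 in PtXaAlbH.12G072300, -0.84 to 0.72 in PtXaAlbH.14G050200, -0.42 to 0.78 in PtXaAlbH.14G139300, -4.16 to 2.73 in PtXaAlbH.16G037300, -1.92 to 0.79 in PtXaAlbH.16G074500, -0.96 to 0.21 in PtXaAlbH.16G083300, -1.41 to 0.51 in PtXaAlbH.17G070500 and -0.26 to 1.01 in PtXaAlbH.18G019500. PtXaAlbH.16G037300 was also at -0.69 with limma-voom, -0.16 with the crossed pairing, -0.040 with barcodes of at least 200 genes and -0.017 without a filter, PtXaAlbH.12G018500 at -0.086, -0.018 and -0.0079 with limma-voom, the crossed pairing and no filter, and PtXaAlbH.06G182600 at -0.0030 without a filter. Nuclei results are limited by UMIs: 8 genes were too low to test, and intervals over 2 plants a group are wide.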
